A study of Mus musculus with 31 samples.

Results

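Natural killer (NK) receptors and NK-type transcription factors were followed as 9 genes, chosen by name and found as rows of the deposited count tables: Klrd1, Klrk1, Klrb1c, Klrb1f, Klrc1, Cd160, Ncr1, Tbx21 and Eomes. All 9 were present among the 48881 genes of each table. The study asked what early thymocytes express once the E protein genes E2A (Tcf3) and HEB (Tcf12) are deleted, and how group 2 innate lymphoid cells (ILC2) of such mice compare. RNA-seq counts came from 31 libraries of C57BL/6 mice of unstated age.

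In the cultures, thymocytes of the DN1 or DN3 stage, before CD4 and CD8 appear, grew on OP9-DL1 stromal cells, which supply a Notch ligand, with SCF, IL-7 and IL-2. Every culture carried R26-CreERT2, a Cre recombinase switched on by tamoxifen, and R26-stop-tdTomato, a reporter of Cre activity. The floxed cultures (replicates a and b) also carried E2Af/f and HEBf/f, and the control cultures (c and d) did not. The drug 4-hydroxytamoxifen was given on day 4 according to the design text, to both genotypes, although the labels of the DN1 day 7 cultures name day 7. Libraries were made on day 4 without sorting, so stroma was included, and from sorted tdTomato+ cells on days 5 and 7, with n = 2 in each of the 12 groups. Freshly isolated ILC2 came from the thymus (n = 2) and lung (n = 2) of mice with plck-Cre, a Cre driven by a T-lineage promoter, together with E2Af/f and HEBf/f, called dKO after their titles. Lung ILC2 of plck-Id1 mice, which express the E protein inhibitor Id1 from the same type of promoter, gave 3 libraries; the genotype labels of 2 of them read plck-Id2 and plck-Id3, and they were grouped by title. No label says that replicates are separate animals or cultures, so each p measures only the spread between these libraries, which may be technical.

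NK cells and the related type 1 innate lymphoid cells balance activating and inhibitory receptors on their surface. Klrd1 encodes CD94, which pairs with the inhibitory chain NKG2A (Klrc1) to read the class Ib molecule Qa-1 (H2-T23). Klrk1 encodes NKG2D, an activating receptor for stress-induced ligands of the RAE-1, H60 and MULT1 (Ulbp1) families, which signals through the adaptors DAP10 (Hcst) and DAP12 (Tyrobp). Klrb1c encodes the NK1.1 antigen and Klrb1f its relative NKR-P1F, of a family that binds Clr proteins (Clec2 genes). Cd160 is a glycolipid-anchored or transmembrane receptor for HVEM (Tnfrsf14), Ncr1 encodes the activating receptor NKp46, and Tbx21 (T-bet) and Eomes are the T-box factors that NK cells depend on. E proteins bind the E-box CANNTG, and their inhibitor Id2 is needed by innate lymphoid cells.

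The E-boxes near the start sites of these genes are shown because the deleted factors bind this motif. The sequences are the 250 bases upstream of the RefSeq start site (GRCm38.p6, the assembly of mm10), 5′ to 3′ on the gene's strand, with every CANNTG in capitals. Shown are Cd160, at the first of its 2 listed start sites (chr3:96829352-96829601, minus strand), Klrb1f (chr6:129045651-129045900, plus strand), Klrc1 (chr6:129678974-129679223, minus strand) and Klrk1 (chr6:129623865-129624114, minus strand), the receptors whose levels differed most between groups among the 8 of the 9 genes that matched a RefSeq window.
Cd160: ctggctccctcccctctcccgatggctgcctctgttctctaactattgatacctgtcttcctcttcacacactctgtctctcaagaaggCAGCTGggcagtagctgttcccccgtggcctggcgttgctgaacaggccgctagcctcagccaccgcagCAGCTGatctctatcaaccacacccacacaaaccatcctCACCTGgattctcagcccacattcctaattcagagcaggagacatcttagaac
Klrb1f: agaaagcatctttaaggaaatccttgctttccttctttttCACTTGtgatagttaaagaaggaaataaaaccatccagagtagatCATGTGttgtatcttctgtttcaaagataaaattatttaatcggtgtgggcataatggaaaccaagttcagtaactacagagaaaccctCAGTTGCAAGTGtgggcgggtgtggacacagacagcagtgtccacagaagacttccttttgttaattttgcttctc
Klrc1: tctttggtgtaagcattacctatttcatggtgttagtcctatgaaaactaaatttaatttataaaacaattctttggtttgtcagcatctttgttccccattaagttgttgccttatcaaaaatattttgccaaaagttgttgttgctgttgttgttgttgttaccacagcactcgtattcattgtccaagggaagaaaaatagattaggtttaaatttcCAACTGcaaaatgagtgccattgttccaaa
Klrk1: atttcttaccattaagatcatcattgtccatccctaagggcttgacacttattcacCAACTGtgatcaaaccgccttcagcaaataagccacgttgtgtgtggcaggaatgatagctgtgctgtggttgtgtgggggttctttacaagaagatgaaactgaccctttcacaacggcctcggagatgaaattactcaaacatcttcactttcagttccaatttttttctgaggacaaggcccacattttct

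Upstream of Cd160 there were 3 E-boxes, at -161 to -156, -92 to -87 and -53 to -48 from the start site. The first and second read CAGCTG, a motif that reads the same on both strands and is held by 13.0% of 32817 RefSeq windows of this length, and the third reads CAGGTG on the reverse strand, a motif held on either strand by 17.2%. The other Cd160 start site had no E-box in its 250 bases. Klrb1f had 4 E-boxes, and its last pair, at -76 to -71 and -70 to -65, lay side by side. Klrc1 had 1, at -30 to -25, and Klrk1 had 1, at -194 to -189. Klrb1c, Ncr1 and Tbx21 each had 1 and Eomes had none. Since 66.2% of all windows hold a CANNTG, a match describes the sequence only.

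Of the 9 genes, 5 lie in the NK gene complex on chromosome 6 (mm10): Klrb1c (chr6:128778485-128789215), Klrb1f (chr6:129045901-129057464), Klrd1 (chr6:129591782-129598775), Klrk1 (chr6:129610323-129623864) and Klrc1 (chr6:129666015-129678973). Cd160 lies at chr3:96798763-96829351, Ncr1 at chr7:4337724-4345164, Tbx21 at chr11:97098071-97115331 and Eomes at chr9:118478212-118486132. Klrc1 has near-identical neighbours (Klrc2, Klrc3), and so have the Klrb1 genes, so that reads may have been divided among copies. Cd160 shares 68 exon bases with Pdzk1 on the opposite strand, and it is not stated whether counting used strand; Pdzk1 had 132 counts in all 26 libraries of the thymus table.

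Culture libraries held 5908459 to 10692186 counts, the thymic ILC2 pair 4818443 and 5669876, the lung dKO pair 3695522 and 5627406, and the 3 lung Id1 libraries 9671437 to 13065445. Levels are given as CPM, the count scaled to the library total. Tests are edgeR quasi-likelihood tests over all genes that passed a filter on low counts, and a gene is called at an adjusted p under 0.05. The filter kept 5 of the 9 genes in the cultures (Cd160, Klrd1, Klrc1, Klrb1f and Tbx21), 6 of 9 with thymic ILC2 (Klrk1 in addition) and 9 of 9 in the lung. A gene that passed only through the group where it is high had to differ, so the members that passed do not stand for all 9. Sex differed along with genotype among the cultures, and these cannot be told apart: Xist was at 588 to 1901 CPM in floxed and 4.55 to 71.4 CPM in control libraries. Tcf3 and Tcf12 were at 14.5 to 38.3 and 103 to 165 CPM in floxed libraries on day 7, against 81.6 to 101 and 273 to 515 CPM in controls. On day 4, the day of the drug in the design text, the genotypes overlapped in Tcf3 within each precursor, but in Tcf12 within neither. Tcf3 was then at 45.9 to 92.4 CPM in floxed and 62.8 to 106 CPM in control libraries. Tcf12 was at 195 to 211 CPM in floxed and 167 to 176 CPM in control DN1 libraries. In DN3 libraries Tcf12 was at 459 to 474 CPM in floxed and 489 to 504 CPM in control cells.

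Cd160 was the most abundant of the 9 genes in the cultures, and no other exceeded 11.99 CPM in a culture library. Per kilobase of exon it had the highest mean of the 9 in each of the 12 culture groups, from 1.34 CPM per kb in DN3 floxed cells on day 4 to 33.3 in DN1 floxed cells on day 7. The next gene reached at most 3.31 CPM per kb (Klrc1, DN1 floxed, day 7). Ncr1 had 0 or 1 count in every culture library, Eomes stayed at or below 0.922 CPM and Klrb1c at or below 1.07 CPM. Klrb1c was at 0 counts in DN1 floxed and DN3 floxed cells on day 4, in DN1 control cells on day 5 and in thymic ILC2; over the thymic pair a count of 0 allows up to 0.286 CPM (3 counts, counting error only). In bulk RNA, fewer expressing cells and less RNA per cell cannot be told apart.

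Cd160 was higher in floxed than in control cells of both precursors on day 7. In DN1 cultures, Cd160 was at 20.2 and 27.6 CPM in floxed libraries on day 4, 48.1 and 56.4 on day 5, and 80.0 and 96.1 on day 7. The DN1 controls were at 19.2 and 18.1 CPM on day 4, 27.6 and 33.9 on day 5, and 35.5 and 38.0 on day 7. The floxed libraries lay above the controls on every day, including day 4, the day of the drug in the design text. The log2 difference, floxed minus control, was 0.34 ± 0.25 (SE) on day 4 (adjusted p 0.999), 0.73 ± 0.23 on day 5 (adjusted p 0.0839) and 1.32 ± 0.23 on day 7 (adjusted p 0.000375). It passed the threshold on day 7 and not on days 4 and 5.

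In DN3 cultures Cd160 started lower. Floxed libraries were at 3.75 and 3.34 CPM on day 4, 7.07 and 11.3 on day 5, and 46.7 and 58.6 on day 7. Controls were at 5.38 and 2.51 CPM, then 5.56 and 4.31, then 13.4 and 9.72. The groups overlapped on day 4 and were apart on days 5 and 7. The differences were -0.10 ± 0.37 (adjusted p 0.968), 0.83 ± 0.31 (adjusted p 0.101) and 2.27 ± 0.25 (adjusted p 2.57e-06) in log2, a 4.81-fold difference on day 7 against 2.50-fold in DN1. The difference between these responses, DN1 minus DN3, was -0.94 ± 0.34 in log2 and was not called (adjusted p 0.0936). Both day 7 calls held in every alternative fit, including each one without 1 library. Sums of 8 stromal markers were 1252 to 6469 CPM on day 4 and at most 174 CPM on days 5 and 7 in the cultures; their part in the day 4 values was not tested.

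**Figure D1:**
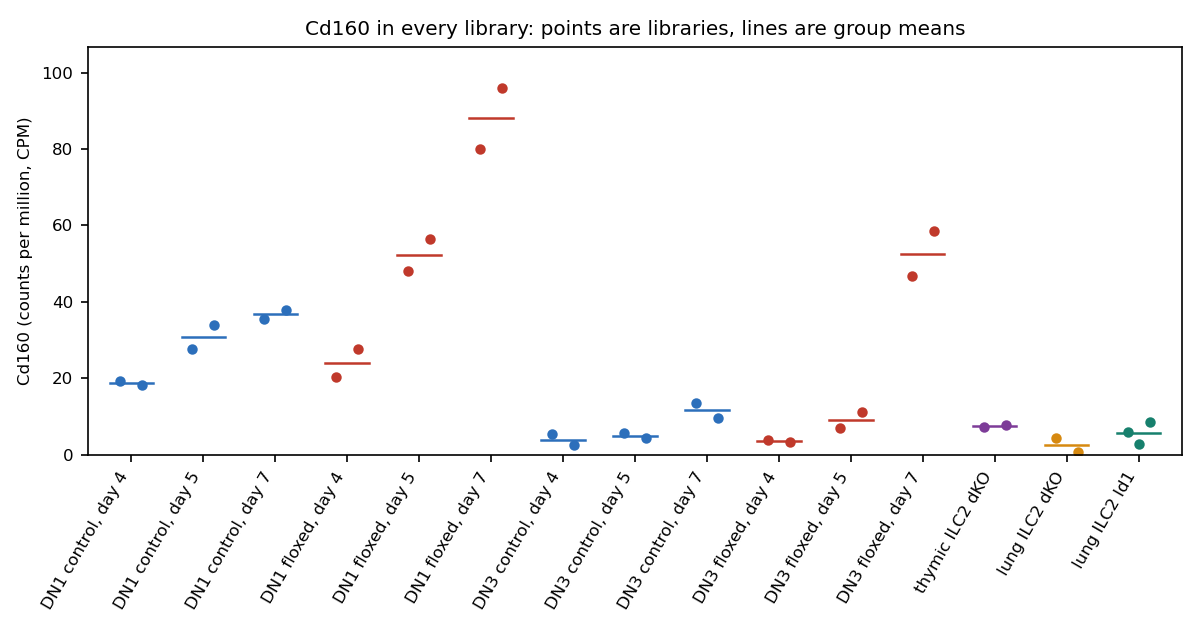
Cd160 in CPM (vertical axis, linear from 0) in each of the 31 libraries by group; points are libraries, horizontal lines are group means, blue is control, red is floxed, and purple, orange and green are ILC2 of dKO thymus, dKO lung and Id1 lung. The DN1 floxed libraries on day 7 sit highest, at 80.0 and 96.1 CPM, followed by the DN3 floxed libraries on day 7 and the DN1 floxed libraries on day 5, while every ILC2 library is below 10.

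Klrd1 and Klrc1, the partners of the CD94/NKG2A receptor, were low in all cultures and differed by library. In DN1 floxed cells on day 7, Klrd1 was at 1.03 CPM in replicate a and 3.46 in b (8 and 26 counts), against 0.364 and 0.125 CPM in the controls (3 and 1 counts). Klrc1 was at 1.16 CPM in floxed replicate a and 11.99 in b (9 and 90 counts), and at 1.21 and 0.375 CPM in the controls (10 and 3 counts). For Klrd1 both floxed libraries were above both controls. For Klrc1 the groups overlapped, since replicate a lay between the controls and b alone was high.

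The log2 differences were 3.17 ± 1.01 for Klrd1 (adjusted p 0.0303) and 3.09 ± 0.98 for Klrc1 (adjusted p 0.0287), both called. Without replicate b of the floxed group they were 2.03 (adjusted p 0.348) and 0.56 (adjusted p 0.831), and neither call held without control c (adjusted p 0.0894 and 0.0727) or d (0.180 and 0.191), nor in a fit of the compared groups alone (0.164 and 0.222). The same replicate b held 39 of the 47 Klrk1 counts and all 23 Klrc2 counts of its group. Its sum of 7 skeletal muscle markers was 7658 CPM, against 60.2 in replicate a and 4.99 and 5.22 in the controls; the part of this in the result was not tested. Sums of 6 markers of NKT, gamma-delta and cytotoxic T cells, all 6 detected, were 1224 CPM in floxed replicate a and 1139 in b. In the controls they were 758 to 804 CPM, and the part of these markers was not tested either.

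DN3 cells showed another order. Klrd1 in DN3 controls went from 0 and 0.269 CPM on day 5 to 2.55 and 4.14 on day 7, and in DN3 floxed cells from 1.36 and 1.73 to 2.20 and 2.30 CPM. On day 5 the floxed libraries were above the controls, by 3.34 ± 1.19 in log2 (adjusted p 0.0868), with 25 against 2 counts. On day 7 they were below, by -0.51 ± 0.73 (adjusted p 0.679), and neither difference was called. Klrc1 in DN3 cells on day 7 was at 2.71 and 4.06 CPM with the floxed alleles and at 4.25 and 1.96 without (log2 difference 0.23 ± 0.87, adjusted p 0.895). The response of DN1 minus that of DN3 was 3.68 ± 1.26 for Klrd1 (adjusted p 0.0813) and 2.86 ± 1.32 for Klrc1 (adjusted p 0.197), and was not called.

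Klrk1 was too low to be tested in the cultures. Its level was 1.03 and 5.20 CPM in DN1 floxed libraries on day 7 and at most 0.971 CPM in every other culture library. The 47 counts of that group stood against 8 in the DN1 controls of the same day and 1 in DN1 floxed cells on day 5. Of the Klrk1 adaptors, Hcst was present throughout: on day 7 it was at 53.4 and 66.2 CPM in DN1 floxed, 42.9 and 42.2 in DN1 control, 49.3 and 60.4 in DN3 floxed and 41.0 and 37.7 in DN3 control cells. Its log2 difference in DN3 cells on day 7 was 0.55 ± 0.19 (adjusted p 0.0392). The MULT1 gene Ulbp1 was at 34.5 to 52.2 CPM in the day 7 cultures.

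Klrb1f was lower in floxed than in control DN1 libraries on days 5 and 7, without passing the test. Controls were at 2.37 and 2.53 CPM on day 5 and 3.28 and 3.12 on day 7, and floxed libraries at 1.41 and 0.992, then 2.57 and 0.933. On these days every floxed value lay below the controls, with log2 differences of -1.05 ± 0.62 (adjusted p 0.414) and -0.80 ± 0.57 (adjusted p 0.330). On day 4 the floxed libraries, at 0.748 and 1.07 CPM, lay above the controls at 0.716 and 0.713 CPM (0.31 ± 0.72, adjusted p 0.999). In DN3 cells Klrb1f was at most 1.36 CPM in any library. Klrb1c reached its culture maximum of 1.07 CPM in DN1 floxed replicate b on day 7, at 8 counts or fewer per library.

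Tbx21 was detected in every culture library, at 0.614 to 4.58 CPM, with the highest values in DN3 controls on day 5 (2.85 and 4.58 CPM). No difference between floxed and control cells passed the test on any day: log2 differences lay between -0.64 ± 0.46 (DN3, day 5, adjusted p 0.452) and 0.56 ± 0.49 (DN3, day 7, adjusted p 0.461). Eomes gave 1 to 11 counts per culture group.

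**Figure D2:**
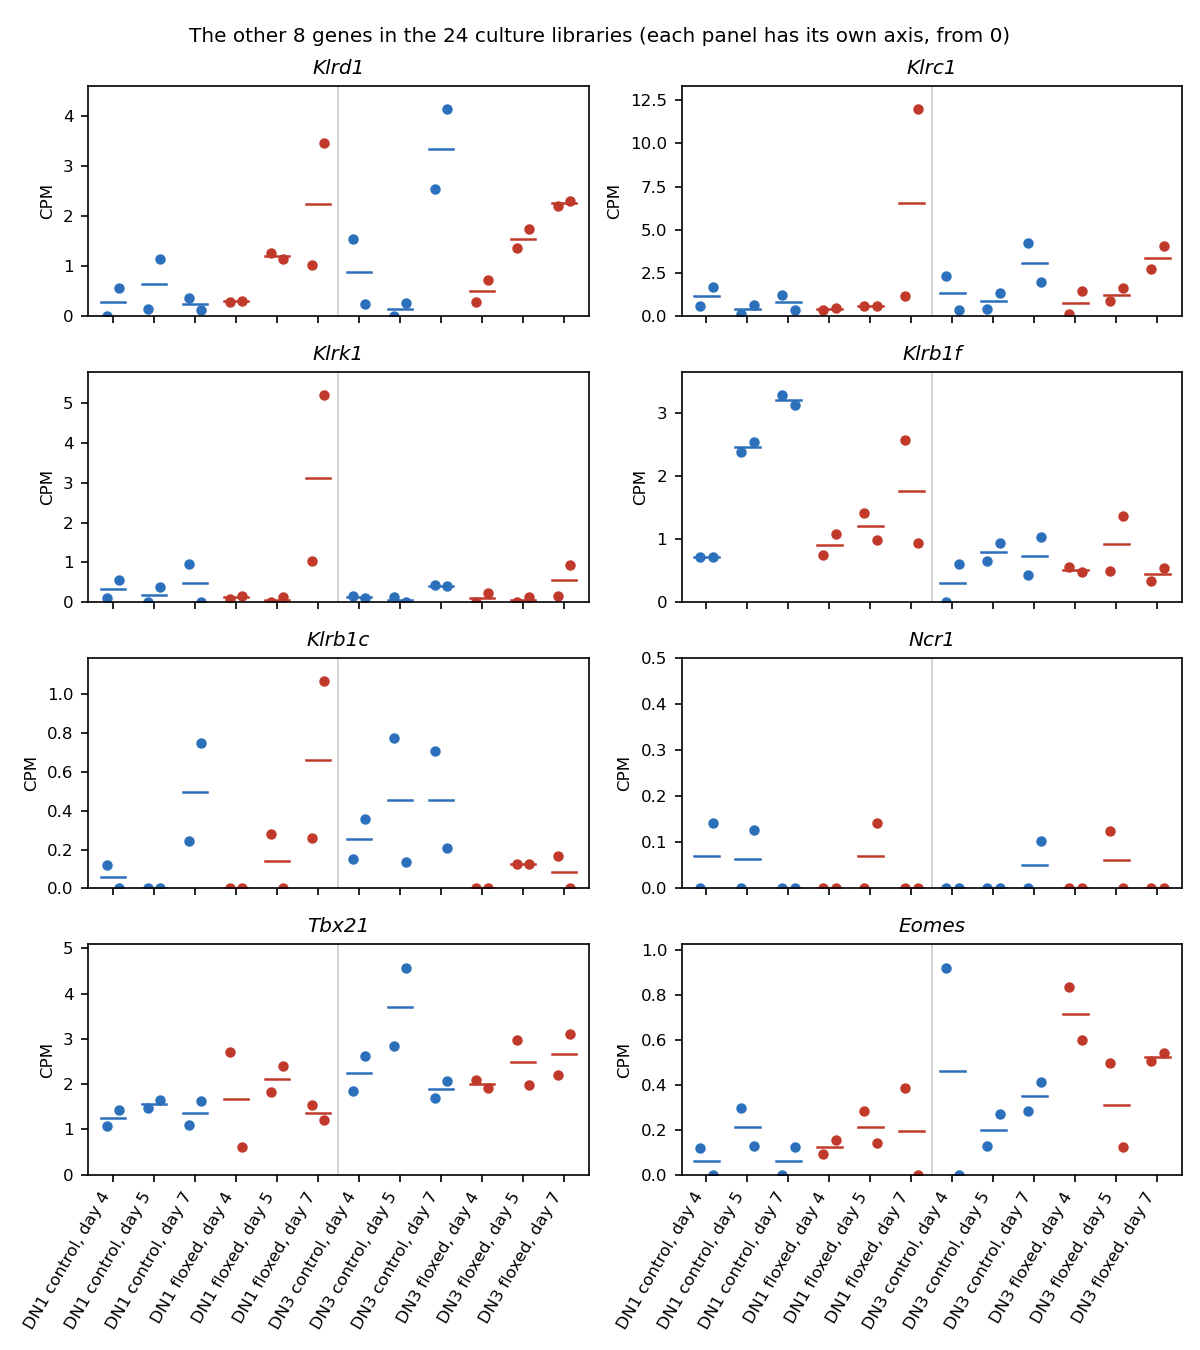
The 8 genes other than Cd160 in CPM (vertical axes, linear from 0, each panel with its own range) in the 24 culture libraries; points are libraries, lines are means of 2, blue is control and red is floxed. A single DN1 floxed library on day 7 carries the highest Klrc1 (11.99 CPM), Klrk1 (5.20 CPM) and Klrb1c (1.07 CPM) values, and Klrb1f is highest in the DN1 controls.

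Of the 5 tested members, 0 were called in either direction on day 4, where 0.105% of all genes were called in DN1 and 0.442% in DN3 cells (edgeR; 0 members had an unadjusted p under 0.05, and DESeq2 called 0 members). On day 5 it was again 0 of 5, against 5.02% of all genes in DN1 and 9.76% in DN3 cells, with 1 member (Cd160) and 2 members (Cd160 and Klrd1) at an unadjusted p under 0.05. On day 7, 3 of 5 were called higher in DN1 floxed cells (Cd160, Klrd1, Klrc1), against 12.2% of all genes called higher. In DN3 cells 1 of 5, Cd160, was called higher, against 12.9%. No member was called lower on day 7 (edgeR), where 10.3% of all genes were in DN1 and 12% in DN3 cells. Of the 5, none was called for a response that differed between DN1 and DN3 (edgeR; 7.79% of all genes were, and 3 members had an unadjusted p under 0.05). Without floxed replicate b, the DN1 count on day 7 was 1.

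**Figure D3:**
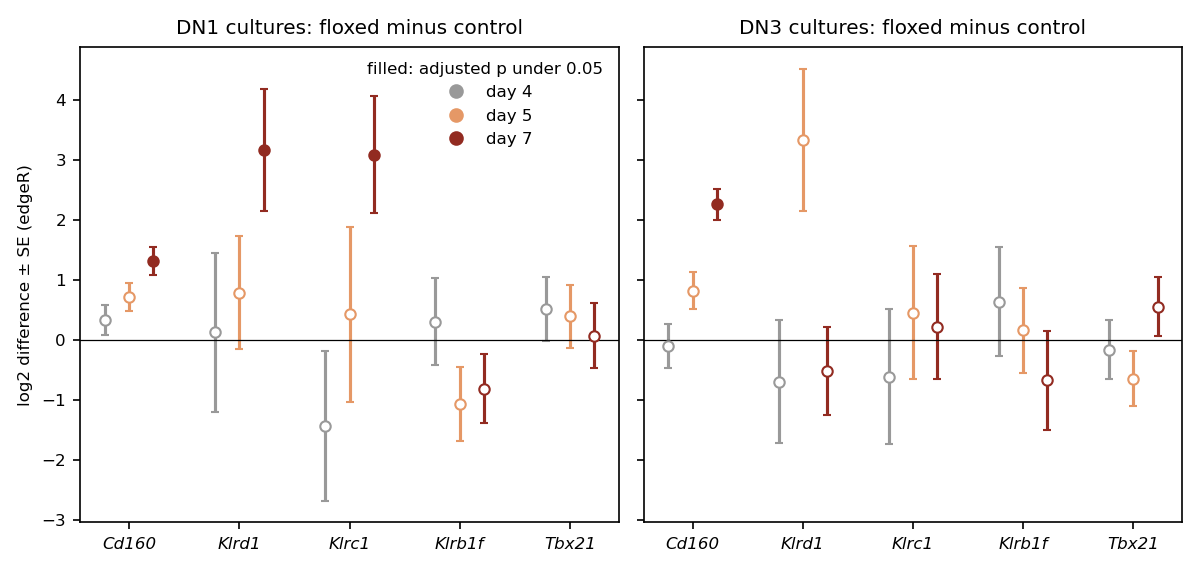
The log2 difference between floxed and control cultures (vertical axis) with its standard error from edgeR for the 5 tested genes on days 4, 5 and 7, DN1 on the left and DN3 on the right; filled points have an adjusted p under 0.05. Cd160 has the narrowest error bars and moves up with time in both panels, while the errors of Klrd1 and Klrc1 span about 1 log2 unit each way.

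The precursors themselves differed. Among day 7 controls, Cd160 was 3.17-fold higher in DN1 than in DN3 cells (log2 difference 1.66 ± 0.25, adjusted p 7.29e-05). Klrb1f was also higher in DN1 cells, at 3.28 and 3.12 against 0.425 and 1.03 CPM (2.04 ± 0.62, adjusted p 0.0228). Klrd1 was lower, at 0.364 and 0.125 against 2.55 and 4.14 CPM (-3.71 ± 0.97, adjusted p 0.00892). In all, 2 of 5 members were called higher and 1 lower, against 11.4% and 11.2% of all genes. The Klrb1f call was lost without DN1 c, DN1 d or DN3 c (adjusted p 0.0866, 0.0714 and 0.176), and the Klrd1 call without DN1 d or DN3 d (0.0947 and 0.0707). The adaptor gene Tyrobp differed by more, with 81 and 72 counts in DN1 and 2 and 2 in DN3 controls. These were 9.83 and 8.99 against 0.283 and 0.207 CPM (log2 difference 5.19 ± 0.81, adjusted p 9.47e-05). Sums of 8 myeloid markers were 23.7 and 21.1 CPM in the DN1 and 7.50 and 6.20 CPM in the DN3 controls. The part of myeloid cells in the Tyrobp difference was not tested.

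From day 5 to day 7, Cd160 rose in DN1 floxed cells by 0.77 ± 0.23 in log2 (adjusted p 0.0214) and in DN3 floxed cells by 2.60 ± 0.26 (adjusted p 5.01e-07). In controls the change was 0.17 ± 0.24 for DN1 (adjusted p 0.701) and 1.16 ± 0.30 for DN3 (adjusted p 0.00945). Klrc1 rose in DN1 floxed cells by 3.53 ± 1.05 (adjusted p 0.0222), from 0.564 and 0.567 CPM, with replicate b far above a: without b the change was 0.998 (adjusted p 0.662), and it was not called without day 5 a or b either (0.124 and 0.104). Klrd1 rose in DN3 controls from 2 to 58 counts in all, a ratio of 25.3 on the scale of the fit (95% interval 6.71 to 214, counting error only; adjusted p 0.00683 from edgeR). Members called in either direction, all of them higher, were 2 of 5 in DN1 floxed cells (21.5% of all genes were called), 1 of 5 in DN3 floxed (24.5%) and 2 of 5 in DN3 control cells (20.3%). In DN1 controls it was 0 of 5 (13.1%; edgeR; 0 members at an unadjusted p under 0.05, and 0 called by DESeq2).

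Some of these calls rested on single libraries. Cd160 in DN1 floxed cells from day 5 to 7 was not called without day 5 replicate a or day 7 replicate b (adjusted p 0.154 and 0.140). In DN3 controls, Cd160 was not called without day 5 d or day 7 c (0.0982 and 0.103), and Klrd1 not without day 5 c (0.078).

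In ILC2 of the dKO thymus the order of these genes was another one. By group mean Klrb1f was highest, at 8.82 and 7.47 CPM, and Cd160 followed at 7.23 and 7.68 CPM, with overlapping libraries. Klrd1, Klrb1c, Ncr1 and Tbx21 had no count in either library. Klrk1 had 9 counts in one library and 0 in the other, Klrc1 0 and 3, and Eomes 2 and 0. The 12 ILC2 markers (Gata3, Rora, Il1rl1 and others) were all detected and summed to 1748 and 2616 CPM. On day 7 the same sum was 1326 to 1869 CPM in control and 2840 to 3287 CPM in floxed cultures. It therefore does not set thymic ILC2 apart from cultured cells. The 6 markers of NKT, gamma-delta and cytotoxic T cells were also all detected and summed to 1141 and 1085 CPM.

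Compared with floxed cultures on day 7, Klrb1f was higher in thymic ILC2 by 2.97 ± 0.57 in log2 against DN1 (adjusted p 7.52e-05) and by 4.88 ± 0.68 against DN3 cells (adjusted p 1.55e-06). Cd160 was lower by -2.82 ± 0.28 (adjusted p 6.44e-09) and -2.09 ± 0.28 (adjusted p 7.22e-07). Against a floor of 3 counts over the group, on the scale of the fit (library totals times TMM factors), Klrd1 was at least 4.63-fold lower than in DN1 and at least 4.76-fold lower than in DN3 cells (adjusted p 0.00724 and 0.0075). Tbx21 was at least 2.86-fold and 5.72-fold lower (adjusted p 0.00244 and 0.00022). The Klrc1 counts were lower by a ratio of 13.5 against DN1 (95% interval 4.48 to 66.5, counting error only; adjusted p 0.0118), and by 7.30 against DN3 cells (2.35 to 36.7; adjusted p 0.0681, not called). The TMM factors of the thymic libraries were 0.549 and 0.658, and on library totals alone these bounds and ratios were larger, at 7.78 and 7.89 for Klrd1, 4.81 and 9.47 for Tbx21 and 22.7 and 12.1 for Klrc1.

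Members called were 1 of 6 higher and 4 lower against DN1 cells, where 33.6% and 40.1% of all 16391 genes were called, and 1 higher and 3 lower against DN3 cells, where it was 33.0% and 38.8%. The median log2 difference of all genes was -0.26 and -0.20 in these comparisons and 0.00 and 0.03 with size factors from DESeq2's method, and the member calls were the same under both. Without DN1 floxed replicate b, Klrc1 differed by -1.20 (adjusted p 0.468) and Klrd1 had an adjusted p of 0.0518. Without thymic replicate 1, Klrc1 differed by -2.74 (adjusted p 0.106). The 2 kinds of cell also differ in culture, sorting, source, sex and Cre (plck-Cre against R26-CreERT2), which cannot be told apart from cell identity. Xist was at 0.18 and 0.21 CPM in the thymic ILC2 libraries and at 1278 to 1884 CPM in floxed cultures on day 7.

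By group mean, dKO lung ILC2 held the highest CPM of any group for 7 of the 9 genes (Klrd1, Klrk1, Klrb1c, Klrb1f, Klrc1, Ncr1 and Eomes). The lung counts are a separate table, so their levels are set beside the others without a test. Klrd1 was at 9.42 and 45.2 CPM in dKO and at 2.07, 0.310 and 0.266 CPM in Id1 libraries. Klrc1 was at 14.6 and 48.7 against 2.53, 1.24 and 1.15 CPM. Klrk1 was at 19.9 and 32.5 against 3.75, 4.34 and 11.6 CPM. For each of these receptors both dKO libraries were above the 3 Id1 libraries. Within the dKO pair, replicate 3 was the higher for all 3, by the most for Klrd1.

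The log2 differences, dKO minus Id1, were 5.19 ± 1.06 for Klrd1 (adjusted p 0.0235), 4.47 ± 0.77 for Klrc1 (adjusted p 0.0181) and 2.20 ± 0.65 for Klrk1 (adjusted p 0.0417). With these, 3 of 9 members were called higher, against 14.4% of all 19371 genes, and 0 lower against 3.66%. The median difference of all genes was 0.16, 0.38 with DESeq2-type size factors, and 1.33 with no filter on low counts. Without dKO replicate 3 no member was called: the differences were 3.25 (adjusted p 0.198), 2.97 (adjusted p 0.120) and 1.48 (adjusted p 0.249), and all-gene calls fell from 3499 to 166. Without dKO replicate 1 all 3 calls held (adjusted p 0.0162, 0.0121 and 0.0303). The Klrk1 call was also lost without any one of the Id1 libraries (adjusted p 0.138, 0.0864 and 0.0517).

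The other 6 genes were not called. Klrb1f was at 7.82 and 23.5 CPM in dKO and 5.82, 0.207 and 3.91 CPM in Id1 libraries (log2 difference 2.56 ± 1.07, adjusted p 0.125). Tbx21 was at 4.26 and 1.89 against 0.153, 0 and 0.533 CPM (3.79 ± 1.46, adjusted p 0.0982). In all, 5 of 9 members had both dKO libraries above every Id1 library, as had 29.8% of all tested genes. Tbx21 is among these 5 and passed the filter on low counts only through the dKO libraries, so it had to differ. Ncr1 was at 5.86 and 0.541 against 1.22, 0.517 and 0.444 CPM, Eomes at 1.24 and 3.79 against 2.37, 0.207 and 0 CPM, and Klrb1c at 1.24 and 3.52 against 1.91, 0 and 0.0888 CPM, all overlapping. Cd160 had the other sign, at 4.26 and 0.812 against 6.05, 2.79 and 8.44 CPM (-1.16 ± 1.101, adjusted p 0.508). Per kilobase of exon, the dKO means were 21.3 CPM for Klrd1, 15.9 for Klrc1, 7.74 for Klrb1f and 3.65 for Klrk1, against 1.24 for Tbx21 and 0.606 for Eomes.

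Several measures differed between the lung groups, while the sums of ILC2, T-lineage and NKT, gamma-delta and cytotoxic T cell markers overlapped between them. In dKO replicate 3, however, each of these sums lay below every Id1 library. Libraries of 1 group differed more here than elsewhere, with a common biological coefficient of variation of 0.706 against 0.138 in the cultures. The dKO pair had fewer counts than the Id1 libraries. ILC2 markers, 12 of 12 detected, summed to 6663 CPM in dKO replicate 1 and 2743 in replicate 3, and to 5222 to 8316 in Id1. T-lineage markers summed to 543 and 148 CPM in dKO (10 of 10 detected) and 341 to 633 in Id1 (Ptcra and Rag1 at 0). Markers of NKT, gamma-delta and cytotoxic T cells summed to 644 and 264 CPM in dKO and 326 to 474 in Id1, 6 of 6 detected in both. The 8 stromal markers, all detected, summed to 61.1 and 86.3 CPM in dKO and 4.67 to 8.996 in Id1, and 7 skeletal muscle markers to 73.6 and 135 against 11.8 to 25.0 CPM (Tnnc2 at 0 in dKO, Des in Id1). Lung epithelium markers were at 52.1 and 30.3 CPM in dKO and 2.38 to 5.74 in Id1, where Sftpc was at 0, and B cell markers at 29.3 and 9.47 against 0.918 to 4.86 CPM, with Vpreb1 at 0 in both. Their part in the results was not tested. Id1 itself was at 25.6 to 82.5 CPM in the Id1 libraries and at most 0.271 CPM in dKO.

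**Figure D4:**
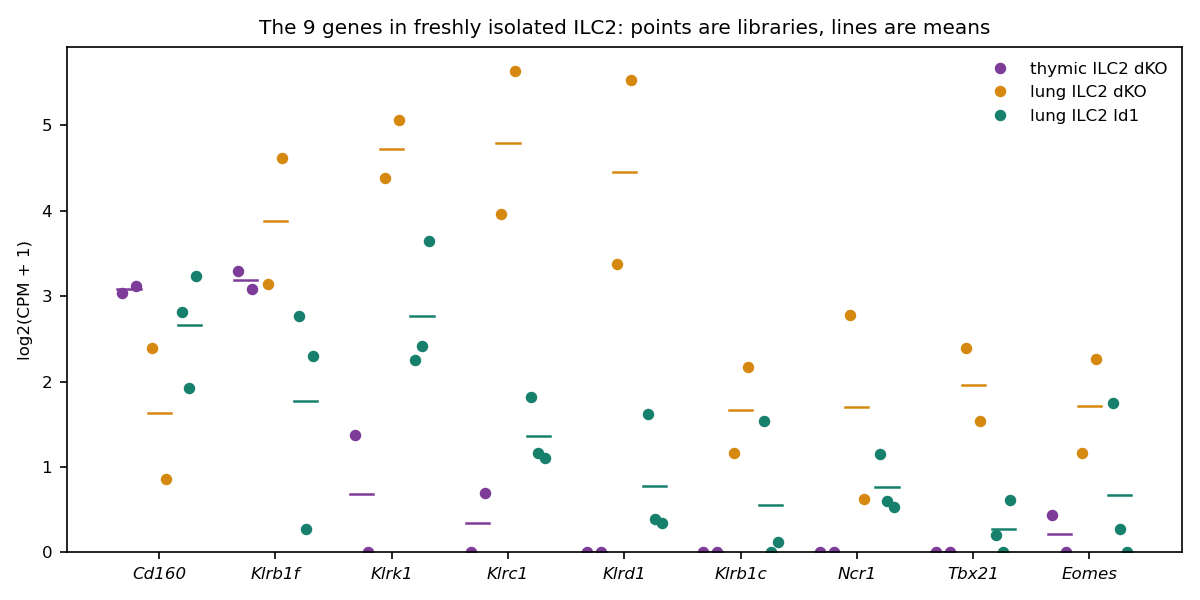
Levels of the 9 genes in freshly isolated ILC2 as log2(CPM + 1) (vertical axis); points are libraries, lines are means, purple is dKO thymus, orange dKO lung and green Id1 lung. Klrk1, Klrc1 and Klrd1 are highest in the dKO lung, where the libraries of Klrd1 are at 9.42 and 45.2 CPM, and Klrd1, Klrb1c, Ncr1 and Tbx21 lie at 0 in both thymic libraries.

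The wider gene family was described from lists of related genes. Of 33 other NK receptors (the Ly49 genes of the Klra family, NKG2C and NKG2E of Klrc2 and Klrc3, 2B4 and others), 31 were matched and 10 passed the filter in the cultures. On day 7 in DN1 cells 1 was called higher and 3 lower, with a median log2 difference of -0.60 against -8.3e-05 over all tested genes. Of all tested genes, 12.2% were called higher and 10.3% lower. Cd226 (DNAM-1, an activating receptor) rose by 2.28 ± 0.45 (adjusted p 0.00126), and Cd244a (2B4) fell by 2.19 on the log2 scale (SE 0.41, adjusted p 0.00074). In DN3 cells Cd226 was higher by 2.51 ± 0.43 (adjusted p 0.000235) and Slamf6 lower by -1.80 ± 0.34 (adjusted p 0.000646), the 2 calls of the list. There, 12.9% of all tested genes were called higher and 12% lower.

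The 14 receptor adaptors and proximal signalling genes, 12 of them tested, had 3 calls higher (Hcst, Inpp5d, Sh2d1a) and 2 lower (Plcg2, Syk) in DN1 cells on day 7, and 2 higher (Hcst, Inpp5d) in DN3 cells. Shares of all genes called higher and lower were 12.2% and 10.3% in DN1 and 12.9% and 12% in DN3 cells. The Hcst call was lost in either precursor without control c, control d or floxed b of day 7. In DN3 cells the log2 differences were then 0.60, 0.48 and 0.38. The adaptor Sh2d1a (SAP) was higher by 2.27 ± 0.39 (adjusted p 0.000349) and the kinase gene Syk lower by -1.58 ± 0.25 (adjusted p 0.000138) in DN1 cells. Of 16 ligand genes of the member receptors, 5 were tested and none was called on day 7 in either precursor (edgeR). The medians of the adaptor list were -0.12 in DN1 and 0.10 in DN3 cells.

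Other factors of NK and ILC1 cells moved both ways. Of 12 tested, 5 were called higher (Id2, Ikzf3, Nfil3, Prdm1, Tox) and 4 lower (Bhlhe40, Ets1, Stat4, Zeb2) in DN1 cells on day 7, and 7 higher and 2 lower in DN3 cells, where the shares of all genes given above were 12.2% and 10.3% in DN1 and 12.9% and 12% in DN3 cells. The DN1 call of Prdm1 was lost without control c, control d or floxed b, and that of Ets1 without control c or d. Id2 was higher in DN1 floxed cells by 2.34 ± 0.21 (adjusted p 3.01e-07), Tox by 1.65 ± 0.14 (adjusted p 2.21e-07) and Nfil3 by 1.81 ± 0.34 (adjusted p 0.000669). In DN3 cells Nfil3 was higher by 1.57 ± 0.31 (adjusted p 0.000997) and Irf8 lower by -1.08 ± 0.26 (adjusted p 0.00376). Bhlhe40 was called lower in DN1 and higher in DN3 cells, and its response was among the 6 of this list called as different between the precursors.

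Among 18 tested cytokine receptors and effector genes, 7 were called higher and 2 lower in DN1 cells on day 7, and 9 higher and 0 lower in DN3 cells, with medians of 0.20 and 1.25. Shares of all genes called higher and lower were 12.2% and 10.3% in DN1 and 12.9% and 12% in DN3 cells. The granzyme gene Gzmb was higher by 3.44 ± 0.49 (adjusted p 5.37e-05) in DN1 and 4.18 ± 0.49 (adjusted p 4.48e-06) in DN3 cells. Cxcr6, a chemokine receptor of resident lymphocytes, was higher by 5.77 ± 0.83 (adjusted p 6.15e-05) and 2.88 ± 0.65 (adjusted p 0.00278), and the second of these calls was lost without DN3 control d or floxed b (adjusted p 0.0677 and 0.0685). Il2rb, the beta chain of the IL-2 and IL-15 receptors, was higher by 2.81 ± 0.38 in DN1 cells (adjusted p 3.04e-05). Without DN1 floxed replicate b, the DN1 calls of the receptor, adaptor, factor and effector lists were 1, 1, 4 and 6 higher and 2, 2, 4 and 1 lower. With each DN3 library left out in turn, the DN3 calls higher were 1, 1 to 2, 4 to 7 and 6 to 10.

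In thymic ILC2 the adaptor Hcst was almost absent, with 3 and 5 counts (0.529 and 1.04 CPM), and was lower than in DN1 floxed cells on day 7 by -5.53 ± 0.34 (adjusted p 2.53e-12). Of 12 tested adaptors 7 were called lower and 0 higher in that comparison, against 40.1% and 33.6% of all genes. The ligand gene H60b had 226 counts in thymic ILC2 (16.9 and 27.0 CPM) and 0 counts in each day 7 culture group, while Ulbp1 was lower by -2.66 ± 0.18 (adjusted p 9.78e-12). H2-T23, the ligand gene of CD94/NKG2A, was higher by 2.09 ± 0.28 (adjusted p 8.09e-07). The receptor list had 4 genes called higher and 3 lower of 10 tested, near the 33.6% and 40.1% of all genes.

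In the lung, 14.4% of all tested genes were called higher in dKO and 3.66% lower, with a median log2 difference of 0.16. With no filter on low counts, the median over all genes was 1.33. The part of low counts in the list results was not tested. Of 22 tested other NK receptors, 6 were called higher and 0 lower, with a median of 2.50. They were Klra4, Klra9, Klrb1, Klrc2, Klre1 and Slamf6. Klrb1, at 16 and 35 counts in dKO and 0, 2 and 0 in Id1, passed the filter only through dKO and had to differ. Klrc2 was at 25.9 and 34.9 CPM in dKO and 2.58 to 5.89 CPM in Id1 libraries. Klre1 was higher by 5.10 ± 0.98 (adjusted p 0.0215). The chemokine gene Ccl5 was higher by 5.93 ± 1.11 (adjusted p 0.0205) and the granzyme gene Gzma by 4.31 ± 1.09 (adjusted p 0.0283), among 4 effectors called higher and 1 lower of 17. Of 11 factors 0 were called higher and 3 lower (Bhlhe40, Id2, Ikzf3), Id2 by -1.51 ± 0.46 (adjusted p 0.0454). These calls varied with the libraries. Without dKO replicate 3, 1 of the 22 receptors (Slamf6), 0 of the effectors and 0 of the factors were called. Without dKO replicate 1 the same 6 receptors were called higher and Lilrb4a lower, 2 effectors (Ccl5, Itga1) were called higher, and 6 factors lower (Bhlhe40, Ets1, Id2, Ikzf3, Prdm1, Runx3). Without Id1 replicate 1, 2 or 3 the receptors called higher were 4, 6 and 4, the effectors 1, 4 and 2, and 0 factors were called in each. Gzma was not called without dKO 1, dKO 3 or Id1 1 (adjusted p 0.0928, 0.0704 and 0.0505).

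Over the 12 culture group means, the protein-coding genes whose log2(CPM + 1) followed Cd160 most closely were Ric8a, Spns3 and Plekhg3, with Pearson correlations of 0.985, 0.981 and 0.977. All 3 were highest in DN1 floxed cells on day 7, as Cd160 was. For Klrc1 the closest were Lrp10 (0.931), Tgoln1 (0.924) and Ndufa13 (0.918). Members needed a mean of at least 5 CPM in some culture group. Klrc1 reached it only in DN1 floxed cells on day 7, at 1.16 CPM in replicate a and 11.99 in b. These 12 points share stroma on day 4, culture time and the sex that goes with genotype, and the correlations describe them only.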

How the data were processed

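The authors deposited raw counts per Ensembl gene, 1 column per library, in a table of 26 culture and thymic ILC2 libraries and a table of 5 lung libraries. The submitters' processing notes name mm10 and DESeq2 without versions. Aligner, counting program and annotation: not given in the sources used here; per the labels total RNA was extracted with Trizol. The design text also mentions lymph node samples, not analysed here. GENCODE M21 gave symbols for 48578 of the 48881 gene IDs, positions and exon lengths. Promoter sequences are from RefSeq.

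CPM are counts over the library total, without further scaling; ratios and bounds use totals times TMM factors. Differences are from edgeR 4.0.16 (R 4.3.3): filterByExpr (minimum count 10), TMM, 1 mean per group, glmQLFit and glmQLFTest, with Benjamini-Hochberg adjustment over all tested genes and a threshold of 0.05. The 24 culture libraries (15172 genes), all 26 libraries of the first table for thymic ILC2 (16391 genes) and the 5 lung libraries (19371 genes) were fitted separately. SE is the log2 difference over the square root of F. Intervals and floors (3 counts over a group) cover counting error only, at 95%. Scripts were checked on simulated data. The simulated lung libraries varied less than the real ones, so this check does not cover the lung test at its own spread.

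The members and lists were chosen with earlier results of these data known. All 9 members are named throughout. Of each related list, the genes given with values are among the up to 4 called genes with the largest change and a mean of at least 5 CPM in the higher group; the levels of Hcst and Ulbp1 in the cultures and of Klrc2 were added after they were seen. Likeness was ranked among genes of at least 20 CPM in some group. Alternatives were DESeq2 1.42.0, DESeq2-type size factors (RLE), no filter, the compared groups alone, each library left out and a replicate block. Replicates of every group differed by more than counting noise.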

Additional observations from a re-analysis of the deposited data

How the results depend on the processing

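No result changed direction. DESeq2 and DESeq2-type size factors (RLE) kept all 24 member calls. With a library left out, 71 of 99 called values kept their call, 28 lost it and 4 other values gained one. A fit of the compared groups alone kept 15, lost 6 and added 3, and no filter on low counts kept 24 and added 10. The cause of these changes was not tested, except that fewer libraries entered the fits that left some out. In the cultures, 4 of the 9 genes were too low in counts to be tested, and the part of depth in this was not tested.

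Calls over all genes were as follows. In floxed against control cells, DN1 day 4 gave 16 calls, 49 with DESeq2, 229 without a filter and 41 with the compared groups alone; DN1 day 7 gave 3412, and 698 with the compared groups alone. DN3 day 4 gave 67, and 257 without a filter, and DN3 day 5 gave 1481, and 730 with the compared groups alone. The response difference gave 1182, 1900 without a filter and 345 with the compared groups alone. With the compared groups alone, DN1 against DN3 controls went from 3431 to 5213, DN1 floxed day 7 against day 5 from 3256 to 32, and DN1 control day 7 against day 5 from 1988 to 4259.

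Member calls moved too. Without a filter they were 1 for DN1 day 5, 2 for DN3 day 5, 3 for the response difference and 2 for DN3 floxed day 7 against day 5. With the compared groups alone they were 1 for DN1 day 5, 1 for DN1 day 7, 0 for DN1 floxed day 7 against day 5 and 3 for thymic ILC2 against DN1 cells.

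With each library left out in turn, all-gene calls were 8 to 38 (DN1 day 4), 228 to 715 (DN1 day 5), 1705 to 5606 (DN1 day 7), 31 to 41 (DN3 day 4), 474 to 1214 (DN3 day 5), 2180 to 2932 (DN3 day 7), 513 to 3156 (response difference) and 2081 to 2323 (DN1 against DN3 controls). For day 7 against day 5 they were 1514 to 5276 (DN1 floxed), 720 to 1050 (DN1 control), 2207 to 3096 (DN3 floxed) and 1565 to 1978 (DN3 control), and in the lung 166 to 3513. Member calls were 1 to 3 (DN1 day 7), 0 to 1 (DN3 day 5), 0 to 2 (response difference), 1 to 2 (DN1 against DN3 controls), 0 to 2 (DN1 floxed day 7 against day 5), 1 to 2 (DN3 control day 7 against day 5), 3 to 5 (thymic ILC2 against DN1) and 0 to 3 (lung).

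No label says that replicate letters or numbers pair the libraries, and they were not treated as pairs. Deviations of same-letter libraries on days 5 and 7 correlated at -0.05 (DN1 floxed), -0.01 (DN1 control), 0.19 (DN3 floxed) and -0.08 (DN3 control), and those of lung numbers 1 and 3 at 0.07 and -0.15. With a replicate block, all-gene calls were 333 in DN1 floxed, 4240 in DN1 control, 4614 in DN3 floxed and 4160 in DN3 control cells for day 7 against day 5, and 3159 in the lung. Member calls under the block were 0 for DN1 floxed cells (Cd160 adjusted p 0.117, Klrc1 0.132), 2 for DN3 floxed cells and 2 in the lung (Klrk1 adjusted p 0.0509).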
